A study of Homo sapiens with 2 samples.

Results

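LTR retroelement stacks are 450 places in the human genome where small RNA recovered with Argonaute lay in the sense of a long terminal repeat (LTR) element, out of 502547 places with reads. A stack is a run of overlapping reads on 1 strand. A stack was taken if it held at least 5 reads and fewer than 0.9 edits per read, carried an LTR item and no SINE or LINE item among the annotations of its own strand, and named no miRNA precursor, tRNA, rRNA, snoRNA, snRNA or scRNA. Of 7858 stacks with that annotation, 5.73% passed the limits on reads and edits. The members were chosen by their reads, edits and annotation, so their number and their read counts are a description and no test was made on them. HEK293 T-Rex cells, of human embryonic kidney origin, made FLAG-tagged AGO3 for 1 library and FLAG-tagged AGO2 for another, and small RNA pulled down with the tag was sequenced. Untagged and input RNA were not analysed here. The stack list pools libraries, so AGO3 and AGO2 cannot be told apart in it. It holds 68649476 reads, more than the 11341300 of both libraries together, and which libraries it pools is not given.

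Many LTR elements are the remains of retroviruses that entered the germ line. A full copy has a long terminal repeat at each end and an internal region, which in retroviruses once coded for viral proteins. The repeats carry the promoter and the polyadenylation signal, and reverse transcription starts from a host tRNA paired to the primer binding site where the 5′ repeat meets the internal region. Most human copies are old and are kept silent by DNA methylation and by histone methylation guided by zinc finger proteins, and many survive as a repeat without an internal region. They are sorted into superfamilies, of which ERV1, ERVK, ERVL and ERVL-MaLR are the main ones in primates, and Gypsy elements are older relics.

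The depth was 4667236 reads for AGO3, with 3055417 (65.47%) assigned to miRNA precursors, and 6674064 for AGO2, with 3485257 (52.22%) assigned. The precursors of mir-10, a miRNA family of the HOX clusters, took 2.50% of the precursor counts in AGO3 and 2.58% in AGO2. Those of mir-196, also of the HOX clusters, took 1.12% in AGO3 and 0.729% in AGO2. Among precursors typical of other cells, liver mir-122 had 2 counts in AGO3 and 1 in AGO2, mir-302 of pluripotent cells had 1 and 2, and mir-223 of blood had 0 in both. Others of that list had more counts, at small shares of the precursor counts. Neuronal mir-124 had 1327 counts in AGO3 (0.0434%) and 3097 in AGO2 (0.0889%). Blood mir-142 had 184 (0.00602%) and 197 (0.00565%), and mir-216 of pancreas 294 (0.00962%) and 193 (0.00554%). Muscle mir-133 had 80 counts in AGO3 and 44 in AGO2, mir-1 had 34 and 16, and pancreatic mir-217 had 16 and 6.

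Mature sequences are known for miRNA precursors that lie inside LTR elements, which are kept out of the 450. The list placed 11 precursors in the sense of such an element, and 3 of them lie in MER52A, an LTR of the ERV1 superfamily that also gave 13 of the 450 stacks. The 3 MER52A precursors and a precursor in a Gypsy element are shown because they are named small RNAs that lie in the same kinds of element. The sequences are from RefSeq (GRCh38.p14), with the seed, bases 2 to 8, in capitals.
miR-4525 (MER52A): gGGGGGAUgugcaugcugguu
miR-4421 (MER52A): aCCUGUCUguggaaaggagcua
miR-6500-5p (MER52A): aGGAGCUAuccacuccaggugucc
miR-6500-3p (MER52A): aCACUUGUugggaugaccugc
miR-4422 (MamGypLTR1a): aAAAGCAUcaggaaguaccca

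No seed was shared among the 12 mature sequences taken from RefSeq for the 11 precursors. Entries placed on chromosome 8 were left out, so the 12 need not be every mature form. The last 8 bases of miR-4421 are the first 8 of miR-6500-5p. Their precursors had stacks on the same strand, under 200 bases apart, at chr1:51525514-51525534 and chr1:51525702-51525726. The MER52A precursors shown are therefore not all separate places. The mir-4525 precursor had 2 stacks on the same strand, of 600 reads at chr17:80626112-80626137 and of 101 reads at chr17:80626155-80626177.

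The 450 stacks held 33779 reads. That was 0.0492% of all reads in the list (exact 95% interval 0.0487 to 0.0497, counting error only) and 0.215% of the 15736680 reads in stacks without a miRNA precursor name. The median stack had 10 reads, with quartiles of 6 and 21. There were 205 stacks with 5 to 9 reads, 212 with 10 to 99, 29 with 100 or more but under 1000, and 4 above that. The 4 largest held 61.2% of the reads, and the 205 smallest held 3.90%.

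**Figure D1:**
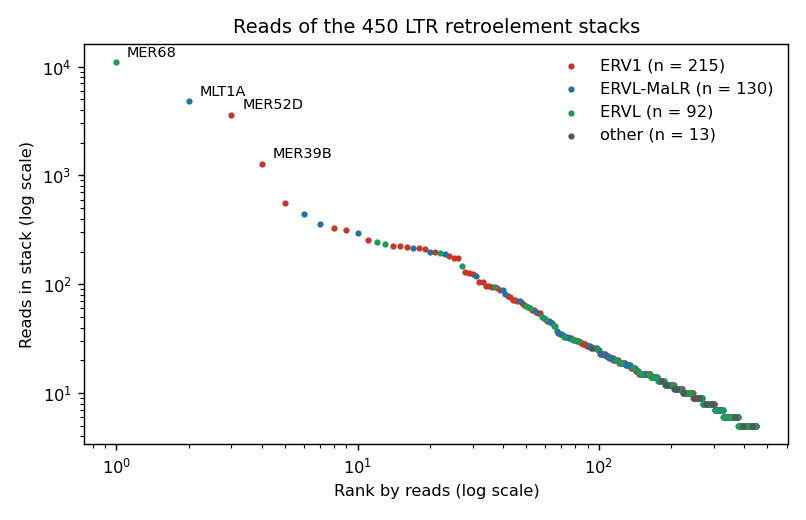
Reads in each of the 450 LTR retroelement stacks (log scale) against rank by reads (log scale), with 1 point per stack coloured by superfamily. A MER68, an MLT1A, a MER52D and a MER39B stack stand above 1000 reads, and the next stack has 556.

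The stack with most reads lay in MER68, an LTR of ERVL, at chr2:241649321-241649347 on the minus strand (hg19, like all positions given here). It was 27 bases long, held 10972 reads or 32.5% of the total, and lay outside annotated genes. An MLT1A repeat, from the ERVL-MaLR superfamily, followed with 4802 reads over 23 bases at chr11:2221638-2221660. A MER52D repeat at chr12:84757451-84757475 gave 3608 reads over 25 bases, and a MER39B repeat at chr11:60727973-60728009 gave 1283 reads over 37 bases. All 4 lay outside genes. The MER68 stack carried the mapping tag UNIQ10_K0 and the others UNIQ40_K0, tags whose meaning is not given.

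The 4 differed in how their reads were placed and edited. The list counts edits per stack without defining them in the sources used here. MER52D had 0.332 edits per read, MER39B 0.178, MER68 0.108 and MLT1A 0.0704. The list scores the spread of read positions and sequences as an entropy. MER68 scored 0.912, MER39B 0.566, MLT1A 0.468 and MER52D 0.387. The median score was 0.0746 in stacks with 5 to 9 reads, 0.143 with 10 to 99 and 0.382 with 100 or more, so MER52D lay near the median of the largest class and MER68 well above it.

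Below these, 6 stacks complete the 10 with most reads, which together held 68.0% of the reads. An LTR34 repeat at chr17:73202530-73202581 had 556 reads over 52 bases with a score of 1.38, and it ran antisense to NUP85, a subunit of the nuclear pore. An MSTB1 repeat at chr2:12439937-12439960 had 440 reads and 0.0159 edits per read. An MLT1B repeat had 357 reads at chr13:24679859-24679880, in an intron of SPATA13, a guanine nucleotide exchange factor. The highest internal region was MER61-int with 330 reads over 24 bases at chr12:10053584-10053607, in an intron of CLEC2A, a C-type lectin. MER50-int had 316 reads over 19 bases at chr2:115879193-115879211, antisense to DPP10, a partner of potassium channels. MLT1H had 297 reads at chr18:62655540-62655565, in an intron of a noncoding transcript. Of the 33 stacks with 100 reads or more, 25 lay outside genes or antisense to one, 8 lay in introns and 0 lay in exons.

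ERV1 gave the most stacks. It held 215 of the 450 (47.8%, 43.1 to 52.5), ERVL-MaLR 130 (28.9%, 24.7 to 33.3), ERVL 92 (20.4%, 16.8 to 24.5), Gypsy 6 and ERVK 5, with 1 more each of a doubtful Gypsy and of an element annotated only as ERV. Stacks of a single read on LTR elements, 5952 under the same annotation and with no limit on edits, serve as a background of positions. Among these ERV1 made up 33.5% (32.3 to 34.7), ERVL-MaLR 37.9%, ERVL 23.1% and ERVK 3.04%. The ERV1 share was thus higher among stacks of 5 reads or more and the ERVL-MaLR share lower. With no limit on edits, ERV1 made up 42.1% of the stacks with 5 reads or more. The stacks come from 1 pool, so this difference has no replicate check. ERV1 made up 38.5% of the stacks with 5 to 9 reads, 54.7% of those with 10 to 99 and 60.6% of the 33 with 100 or more. Counted by reads the order differs: ERVL held 12998 reads, ERV1 12259 and ERVL-MaLR 8389, and 10972 of the ERVL reads were those of the MER68 stack.

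The smaller superfamilies had few reads. The ERVK stack with most reads was an LTR13_ repeat at chr19:12099336-12099377 with 26 reads, followed by LTR22B and LTR22A with 11 each. The Gypsy elements were led by a MamGypLTR3 stack with 13 reads, an LTR81C stack with 12 in an intron of NPM3, a nucleoplasmin gene, and a MamGyp-int stack with 9. LTR85a, the doubtful Gypsy, had 9 reads and LTR55, annotated only as ERV, had 8. Among the larger superfamilies, ERVL was led after MER68 by MER21-int with 247 reads at chr7:137993934-137993957 and by MLT2B2 with 234 at chr10:94624510-94624534, in an intron of the exocyst gene EXOC6.

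Stacks in the repeats themselves numbered 344 (76.4%), and 106 (23.6%, 19.7 to 27.8) lay in internal regions, against 20.2% internal among single-read stacks. The repeats held 29182 reads and the internal regions 4597. In ERV1, 82 of 215 stacks were internal. In ERVL-MaLR 11 of 130 were internal and in ERVL 9 of 92.

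The 450 stacks carried 190 element names, 96 of them with 1 stack each. MER41-int, the internal region of an ERV1 element, had the most. It gave 23 stacks, 5.11% of the 450 against 0.672% of the single-read stacks. Of the 2753 annotated ERV1 stacks 7.81% passed the limits, and of the 84 of MER41-int 27.4% did. Its stacks spread over 11 chromosomes and had 5 to 218 reads with a median of 16. The 4 highest had 218 reads at chr11:77354055-77354096, 214 at chr7:149382728-149382779, 196 at chr4:88284893-88284927 and 183 at chr22:37589830-37590007. No single place therefore led this element. The last of the 4 lay in an intron of C1QTNF6 and was 178 bases long, the longest of all 450 stacks.

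MER41-int stacks were long. Their median length was 35 bases, 18 of 23 were 30 bases or longer and 16 were 33 to 45. MER57-int, another ERV1 internal region, gave 10 of its 37 annotated stacks with a median length of 36.5 bases, and HERV35I-int gave 5 of 20, all between 43 and 51 bases. The HERV35I-int stack with most reads had 176 at chr3:41726473-41726521, antisense to ULK4, of a kinase family. The median score was 0.287 in MER41-int, 0.323 in MER57-int and 0.614 in HERV35I-int, against 0.108 over the 450.

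MER52 had the other large group of ERV1 stacks, with a median length of 24 bases, the same as over all 450. MER52A gave 13 stacks, 2.89% of the 450 against 1.02% of the single-read stacks, with a median length of 22 bases. MER52D gave 9 with a median of 25 bases, and 3608 of its 3997 reads came from the stack on chromosome 12. After that one, the MER52 stacks with most reads were a MER52A stack with 126 at chr5:145158306-145158326, antisense to PRELID2, and MER52D stacks with 123 at chr3:166832569-166832594 and 105 at chr17:74174562-74174585, antisense to the ubiquitin ligase gene RNF157. At least 0.5 edits per read were found in 38 of all 450 stacks, in 3 of 13 MER52A and 2 of 9 MER52D stacks, in 4 of 11 MLT1D stacks and in 0 of 23 MER41-int stacks. MER61A gave 10 of its 38 stacks (26.3%) and LTR12C, the promoter-bearing repeat of HERV9, gave 10 of 145 (6.90%). Over all LTR stacks with that annotation 5.73% passed the limits, and over those of ERV1 7.81%. MER41, MER52, MER57, MER61 and HERV35I were picked out after their values were seen.

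**Figure D2:**
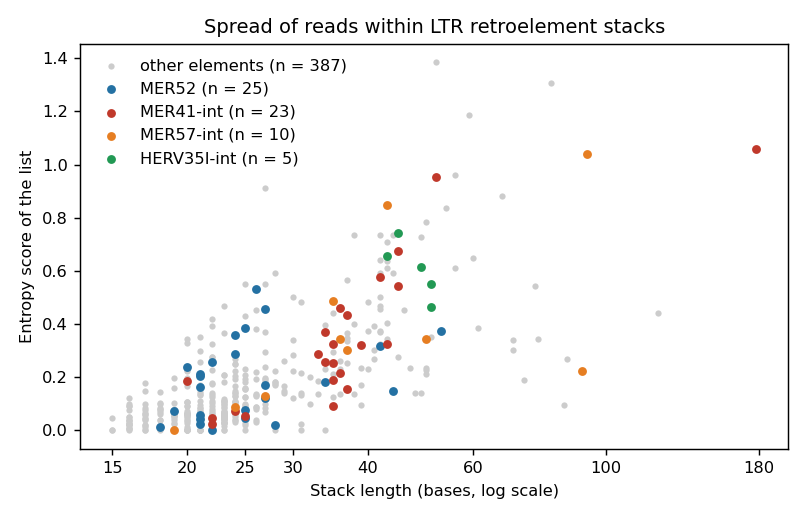
Entropy score of each of the 450 stacks against its length in bases (log scale), with 4 ERV1 elements coloured. MER41-int, MER57-int and HERV35I-int stacks lie mostly at 30 bases or more, while MER52 stacks lie mostly under 30.

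Among well-known families, HERVH with LTR7, the primate element expressed in pluripotent cells, had 2 stacks, led by HERVH-int with 22 reads. It gave 0.444% of the 450 against 0.655% of the single-read stacks. HERVK with LTR5, which includes the youngest human elements, had 1 stack, a HERVK9-int with 6 reads, or 0.222% of the 450 against 1.53% of the single-read stacks. HERV17 with LTR17, the source of syncytin-1, also had 1 stack with 6 reads (0.222% against 0.319%). HERVE with LTR2 had 1 stack with 10 reads (0.222% against 0.437%). HERV9 with LTR12 had 14 stacks and 766 reads (3.11% of stacks against 2.62%), led by an LTR12C stack with 223 at chr2:34000602-34000623. The MER4 group had 9 stacks and 89 reads (2% against 2.13%), led by MER4C with 23. HERVL with MLT2 had 13 stacks and 360 reads (2.89% against 3.86%), 234 of the reads in the EXOC6 intron.

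The MaLR families were numerous and short. MLT1, the oldest of them, gave 100 stacks and 7352 reads, and 34.7% of the reads remained without the MLT1A stack. MST gave 18 stacks and 693 reads, and THE1, the youngest, gave 12 stacks and 344 reads, led by a THE1D stack with 189 at chrX:22080281-22080310. The shares were 22.2% for MLT1 against 28.8% of the single-read stacks, 4% against 5.04% for MST and 2.67% against 3.95% for THE1. Median length was 22 bases in MLT1, 23 in MST and 21 in THE1.

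Over all 450 stacks the median length was 24 bases (order-statistic interval 23 to 24), with quartiles of 21 and 31 and a range of 15 to 178. Lengths of 19 to 25 bases, which include those of most miRNAs, were found in 234 stacks (52.0%), and 23 was the most common. That share was 78.5% of the single-read LTR stacks, 57.0% of SINE stacks and 57.3% of LINE stacks, so such lengths were not more frequent in the 450. There were 52 shorter than 19, 43 of 26 to 29 and 121 (26.9%) of 30 or more. Single-read stacks, whose length is that of 1 read, had a median of 21 and none exceeded 30, a length that 116 of the 450 passed. In the 184 stacks whose read positions barely varied (position entropy of at most 0.05) the median length was 21.5.

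The long stacks were mainly ERV1: 80 of the 121 with 30 bases or more. They made up 37.2% of the ERV1 stacks, against 17.4% of all others. Within ERV1, 41 of the 82 internal stacks were that long, against 39 of the 133 repeat stacks. Without MER41-int, MER57-int and HERV35I-int the share in ERV1 was 28.2% (50 of 177). The order held at each read level, with 38% in ERV1 against 13.4% in ERVL and ERVL-MaLR at 5 to 9 reads, 35.3% against 22.2% at 10 to 99, and 45% against 7.69% at 100 or more. The last pair rests on 20 and 13 stacks.

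Compared with other retroelements under the same rule, long stacks were more frequent on LTR elements, at 26.9% against 17.1% of 1206 SINE stacks and 19.1% of 747 LINE stacks. This held for the sense strand only: stacks antisense to the elements were that long in 8.64% for LTR, 14.9% for SINE and 21.7% for LINE. Of the miRNA precursor stacks 32.6% were. Median lengths were close, 24 bases for LTR, 25 for SINE and 23 for LINE stacks. The median score was 0.108 for LTR, 0.0920 for SINE, 0.103 for LINE and 0.211 for miRNA precursor stacks, but the last had a median of 89.5 reads against 10 or 11 for the others, and the score was higher in stacks with more reads.

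Most LTR stacks lay away from gene sense strands. There were 233 outside genes (51.8%), 88 antisense to a gene (19.6%), 78 in introns (17.3%, 13.9 to 21.2) and 51 in exons (11.3%, 8.56 to 14.6). Among single-read stacks 27.8% were intronic and 7.12% exonic. In the sense of a gene lay 28.7% of LTR stacks (24.5 to 33.1), against 47.0% of SINE and 37.5% of LINE stacks. The exonic stacks held 613 reads in all, with a median of 10 reads, the same as over all 450, and a median length of 30 bases. Of the 51, 23 carried a 3′ UTR item and 30 a coding transcript.

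The exonic stack with most reads lay in LTR83 within the 3′ UTR of SEPHS2, the selenophosphate synthetase, with 61 reads over 50 bases at chr16:30454952-30455001. A MER41A repeat in ZNF850 had 29 reads over 122 bases at chr19:37236934-37237055. A MER52A repeat had 25 reads at chr18:32864278-32864302, in ZSCAN30 and an overlapping noncoding RNA. A THE1C repeat in LINC00641 had 23 reads at chr14:21672120-21672173, and an LTR21A repeat in DANCR, a noncoding RNA that hosts snoRNAs, had 21 at chr4:53579969-53579997. ZNF850 carried 3 further stacks, 1 in the same MER41A repeat with 13 reads and 2 in LTR52 with 9 and 6. ZNF and ZSCAN genes, picked out after their values were seen, code for zinc finger proteins. They held 14 of the 450 stacks (3.11%, 1.71 to 5.16) against 113 of the single-read stacks (1.90%), a share within that interval. The ZNF850 stacks are among the 14, so these are not 14 separate genes. Of the 14, 10 were exonic, and the exonic share of the single-read stacks in these genes was not computed.

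The opposite orientation looked different. A mirrored rule, with the LTR item on the strand opposite the stack, found 567 stacks, so 44.2% of LTR stacks (41.2 to 47.4) were in the sense of the element. The single-read stacks gave 45.9%, SINE stacks 65.6% and LINE stacks 49.3%. By reads the sense strand was much lower, with 33779 sense and 487104 antisense reads, or 14.4 antisense reads per sense read. The 10 antisense stacks with most reads held 82.7% of the antisense reads, and without the 10 largest of each orientation the ratio was 7.78. The median stack had 10 reads in sense and 14 in antisense. SINE stacks had 52238 sense and 18157 antisense reads, and LINE stacks 138435 and 83014.

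Many of the antisense reads lay where a repeat meets the internal region. None of the 450 sense stacks carried both an LTR and an internal name. The exact 95% interval of that share, with limits on both sides, ends at 0.816%. Taking a count of 0 to allow 3, an upper limit alone, gives 0.667%. Among the antisense stacks 31 of 567 did (5.47%, 3.74 to 7.67), and they held 261279 reads, 53.6% of the antisense total. These junction stacks had a median length of 24 bases, and 29 of 31 were 19 to 30 bases long. One at LTR48B and LTR49-int, chr1:247532835-247532861, had 107212 reads, and one at HERVS71-int and LTR6B, chr15:89081871-89081894, had 31776. HERVH with LTR7 had 41 reads in the sense set, while 1 antisense junction stack of HERVH-int and LTR7, chr14:102706659-102706683, had 27511. In single-read stacks, 5 of 5952 sense (0.0840%) and 19 of 7015 antisense stacks (0.271%) were at a junction. That sense share lies within the interval of the 450, so the count of 0 does not set the 450 apart from it. Without a genome of this build the sequences of the junction stacks were not read here.

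**Figure D3:**
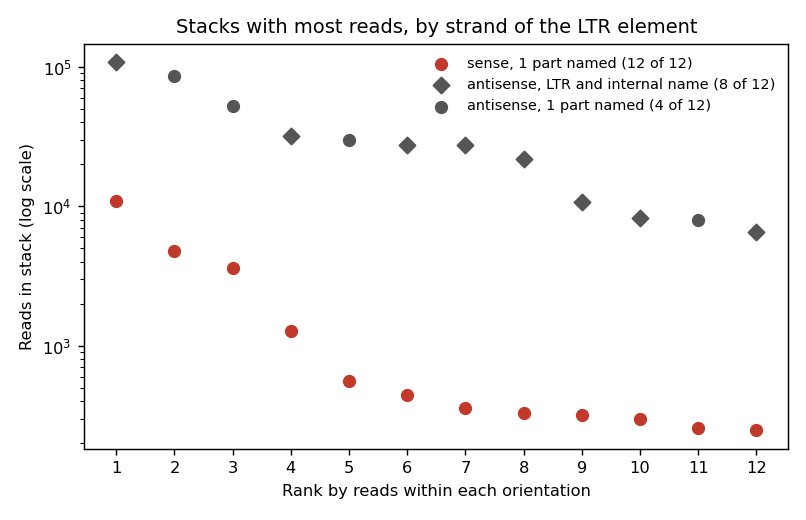
Reads (log scale) of the 12 stacks with most reads in the sense of an LTR element and of the 12 with most reads antisense to one, by rank. Diamonds mark stacks that carry both an LTR and an internal name, 0 of 12 sense and 8 of 12 antisense; at each rank the sense stack has fewer reads.

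A stack on the other strand overlapped 18 of the 450 (4%, 2.39 to 6.25), against 1.09% of single-read LTR stacks, 2.65% of SINE, 4.28% of LINE and 16.6% of miRNA precursor stacks. Both strands reached 5 reads in 5 places. An LTR40a stack at chr2:211764055-211764070 had 26 reads with 50 opposite, MER21B at chr2:74384253-74384283 had 48 with 8, and MLT1H2 at chr3:25509007-25509033 had 8 with 26. MLT1J2 at chr1:166872815-166872835 had 5 with 11, and MER77 at chr2:34470613-34470628 had 5 with 7. The MER68 stack, with 10972 reads, had 2 reads opposite.

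Stacks on the same strand and close by are the arrangement that a hairpin gives when both arms are read. A same-strand stack within 60 bases was found for 95 of the 450 (21.1%), against 24% of SINE, 15.7% of LINE, 76.2% of miRNA precursor and 6.22% of single-read LTR stacks. In 37 of the 95 the neighbour had 1 read. Pairs of members under 200 bases apart numbered 22, and all 22 were on the same strand and in the same element name. In 14 pairs the gap was at most 60 bases, and in 6 of these both stacks were 19 to 31 bases long. MLT2B2 in EXOC6 was such a pair, with 234 and 8 reads in stacks of 25 bases each and a gap of 9. LTR22B at chr1:171220818-171220842 had 11 reads and its neighbour 10, each over 25 bases with a gap of 19. MER21B on chromosome 2 had 48 and 63 reads with a gap of 1 base. Folding was not examined.

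Edits were bounded by the rule. There were 117 stacks (26%) with no edit, and the median was 0.143 edits per read. The highest were MER52A at chr4:131270872-131270898 with 0.897, LTR40c at chr15:71696294-71696320 with 0.892 and MLT1D at chr22:36840131-36840149 with 0.889. Just outside were MER83 at chr19:12746884-12746906 with 0.909, LTR16A at chr18:39293477-39293498 with 0.917 and LTR12C at chr5:138929241-138929261 with 0.923. The limit left out 253 stacks with 14336 reads, of which 226 had at least 1 edit per read. At the limit on reads, 72 stacks had exactly 5, and 115 with 4 reads fell outside it.

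The features placed in LTR elements that were counted by library are miRNA precursors. Those with a count in AGO3, AGO2 or both were 5 in the sense of an element and 5 antisense to one. Whether they derive from the element was not examined. The mir-4525 precursor, in MER52A, had 160 counts in AGO3 and 98 in AGO2, a log2 ratio of shares of 0.89 (0.53 to 1.27). The mir-4421 precursor, also in MER52A, had 56 in AGO3 and 40 in AGO2, a log2 ratio of 0.67 (0.06 to 1.30). The mir-4422 precursor had 18 in AGO3 and 14 in AGO2, mir-4460 in HERVL40-int had 4 and 1, and mir-5695 in MER39B had 2 and 3. Of the antisense precursors, mir-3200 had 251 in AGO3 and 413 in AGO2 (log2 ratio -0.53, -0.76 to -0.30) and mir-585 had 85 and 37 (1.38, 0.82 to 1.99). The mir-4286 precursor had 37 in AGO3 and 27 in AGO2, mir-4428 had 4 and 2, and mir-4704 had 2 and 0. The stack list differed from these counts in both directions. It held 9 reads for mir-4421, fewer than its counts, and 5393 for mir-4286, more than its counts.

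Of the 3 precursors with at least 100 counts, 1 lay in the sense of an element (mir-4525) and 2 lay antisense to one. Higher in AGO3 were 2 of the 3, mir-4525 and mir-585, and mir-585 alone passed 2-fold. Over all 411 precursors with that many counts 24.6% passed 2-fold, 15.8% higher and 8.76% lower in AGO3. Their median log2 ratio was 0.08 with an SD of 1.02, and the share higher in AGO3 by any amount was not computed. With 1 library per protein these ratios have no replicate check, and the 3′ adapter differs between the libraries, so adapter and protein cannot be told apart. Intervals are exact and cover counting error only.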

How the data were processed

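The deposited stack list gives a raw count of reads per stack and, per the file headers and fields, its strand, edits, annotation on each strand and an entropy score, which here matched the total entropy field in all 502547 stacks. The deposited precursor tables give, for each library, the raw count of every miRNA precursor. Per the submitters' processing notes, the build is hg19 and the tools include Bowtie2 2.1.0. Not given in the sources used here are the libraries pooled in the stack list, the meaning of its mapping tags and the placing of reads that match several loci. The tags were UNIQ40_K0 for 280 stacks, UNIQ10_K0 for 146 and UNIQ40_K1 for 24, and the library support field is 1 in every stack.

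The deposited counts were used as they are. Stacks were chosen by the rule stated in the report, and the members and lists were chosen with earlier results of these data known. Element names ending in int or I were taken as internal. A junction stack carries an LTR and an internal name. Because the rule takes only sense stacks, the share in the sense of the element was computed against the stacks found by the mirrored rule. Shares have exact (Clopper-Pearson) 95% intervals; without molecular identifiers reads may repeat a molecule, so these cover counting error only. Log2 ratios of AGO3 over AGO2 compare shares of precursor counts with a pseudocount of 0.5. No test was made. The rule and the interval computation were tested on simulated data. Stacks named are the 10 with most reads, the 3 of each superfamily and the first of each of 10 groups of elements, 5 in exons, 5 with both strands read, those beside the limits, and 10 precursors; others were chosen after their values were seen. Alternatives covered the read minimum, the edit limit, SINE or LINE items, the largest stacks, and for precursors the pseudocount, scaling and minimum. Tables were handled with pandas 2.3.3 and numpy 2.4.6 under Python 3.11.15, intervals came from scipy 1.17.1, and plots from matplotlib 3.10.9.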

Additional observations from a re-analysis of the deposited data

How the results depend on the processing

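With a minimum of 2 reads there were 1286 stacks, the largest held 30.6% of the reads, 49.0% of stacks were in the sense of the element, the median score was 0.0469 and 46.8% had an edit. With 10 reads these were 245 stacks, 33.8%, 40.6%, 0.177 and 84.5%, and ERV1 made up 55.5%. With 20 reads they were 120 stacks, 35.6%, 35.0%, 0.276 and 95.8%, with ERV1 at 56.7%, 21.7% in the sense of genes, a median length of 26 bases and an opposite stack for 7.5%. With no limit on edits there were 703 stacks, the largest held 22.8%, ERV1 made up 42.1%, 23.3% lay in genes, and the median length was 22 bases, the median score 0.0824 and the edited share 83.4%. The largest stack held 33.5% with fewer than 0.5 edits per read, and without the MER68 stack the next held 21.1%. With a minimum of 20 counts, 5 of 6 precursors were higher in AGO3 rather than 2 of 3, since the lower minimum admits more. Of those admitted, mir-4421 had an interval that excluded equal shares under the main scaling (0.06 to 1.30). The intervals of mir-4422 and mir-4286 did not exclude them. Scaling by the median of ratios lowers log2 ratios by 0.19, more than the lower limit of 0.06 for mir-4421. That scaling was run only for precursors with at least 100 counts. The share of all precursors higher in AGO3 was not computed, so the 5 of 6 cannot be set against it. Over all precursors with at least 100 counts the median log2 ratio was 0.08, itself on the AGO3 side. Leaving out the 10 largest stacks of each orientation, chosen after seeing the data, gave 7.78 antisense reads per sense read rather than 14.4. The cause of the other differences was not tested. Keeping stacks with a SINE or LINE item moved no value beyond its counting interval, or a count of stacks beyond 1.5 times. Another pseudocount or scaling moved no value for the precursors with at least 100 counts beyond its counting interval. No paired analysis was possible because there was 1 library per protein. The planned match of stack sequences to miRNA seeds and tRNA ends was not run, since no genome of the build was used here. In the 205 stacks with 5 to 9 reads, shares of edits and length are coarse.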
